A study of Mus musculus with 12 samples.

Results

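The 10 genes described here are immediate early response genes of the mouse. They are the transcription factor genes Egr1, Fos, Fosb, Jun, Junb and Atf3, the response genes Ier2 and Ier3, and the feedback genes Dusp1 and Zfp36. They were taken by symbol from the transcript clusters, the units for which an array gives 1 value each, that carry exactly 1 gene symbol. All 10 genes were found, each with 1 cluster, among 19938 genes with such a cluster. The list was selected on a measured value, the rise of the Egr1 signal in 42Y against 42WKK, which was among the largest at 42 weeks. Every difference that involves a 42-week group is therefore given as a description, without a test.

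Gene expression was measured on 12 arrays, 2 in each of 6 groups that are called here by the array titles 42Y, 42WKK, 16Y, 6Y, 6K and 1 (group 1). The design text of the series counts 42Y, 16Y and 6Y as type 2 diabetes (T2D) mice, and 42WKK, 6K and group 1 as controls. The sample records instead list 6K under T2D and 42Y under control, so the status of these 2 groups is not settled. By the group names the study used, 42Y are KK-Ay mice and 42WKK are KK mice of 42 weeks. The KK strain is prone to diabetes, and KK-Ay mice carry in addition the A-y allele of agouti, with which they grow obese. For the arrays titled 16Y, 6Y, 6K and 1, neither strain nor age is given array by array in the sources used here. No source used here says that the 2 arrays of a group came from separate mice, so p-values measure only the spread between these samples. All values are log2 signals, and the array medians over 35556 clusters ranged from 4.74 to 4.88.

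The sample records name blood as the tissue and the methods name liver. The 7 measured hepatocyte markers (Alb, Ttr and others) had array medians of 12.88 to 13.29, while the 5 T cell markers had medians of 3.99 to 4.60 and the 3 B cell markers 2.78 to 3.50. The medians of the lymphocyte markers thus lay below the median of all clusters on every array. The arrays of a group correlated with each other at 0.983 (42Y, the lowest) to 0.991 (42WKK). Because whole tissue was used, fewer cells of a type and less RNA per cell cannot be told apart.

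Immediate early genes are transcribed within minutes of a growth factor, hormone or stress signal and need no new protein for it. Kinase cascades act on factors already bound at their promoters, such as serum response factor with its Elk partners and the cyclic AMP response element binding protein. The products are mostly transcription factors that set off the next wave of genes, together with phosphatases and RNA-binding proteins that end the response. In liver they are known for their induction after loss of tissue, in injury and by hormones.

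The promoters of 5 members, all with a marked match, are shown for some of the elements through which these genes are known to be controlled. RefSeq sequences of 250 bases before the annotated start (mouse build GRCm38.p6) were matched for 8 of the 10 genes, all but Egr1 and Ier2. The sequences run 5′ to 3′ on the strand of the gene, for Junb at chr8:84978749-84978998 (minus strand), Atf3 at chr1:191183334-191183583 (minus strand), Fos at chr12:85473640-85473889 (plus strand), Jun at chr4:95052223-95052472 (minus strand) and Dusp1 at chr17:26508473-26508722 (minus strand). Capitals mark TGACG, the core of a cyclic AMP response element, or TGACNTCA on either strand. The matched promoters of Fosb, Zfp36 and Ier3 are not shown, and those of Zfp36 and Ier3 hold neither of these motifs.
Junb: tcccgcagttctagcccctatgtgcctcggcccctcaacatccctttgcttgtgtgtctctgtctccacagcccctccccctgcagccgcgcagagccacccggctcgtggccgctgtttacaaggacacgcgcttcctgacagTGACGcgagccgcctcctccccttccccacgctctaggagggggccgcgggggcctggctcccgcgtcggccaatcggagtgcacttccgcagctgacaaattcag
Atf3: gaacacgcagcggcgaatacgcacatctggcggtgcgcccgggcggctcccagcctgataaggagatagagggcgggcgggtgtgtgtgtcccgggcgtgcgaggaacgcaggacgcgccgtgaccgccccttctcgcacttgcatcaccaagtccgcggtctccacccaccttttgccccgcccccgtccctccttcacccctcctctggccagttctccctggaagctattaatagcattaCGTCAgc
Fos: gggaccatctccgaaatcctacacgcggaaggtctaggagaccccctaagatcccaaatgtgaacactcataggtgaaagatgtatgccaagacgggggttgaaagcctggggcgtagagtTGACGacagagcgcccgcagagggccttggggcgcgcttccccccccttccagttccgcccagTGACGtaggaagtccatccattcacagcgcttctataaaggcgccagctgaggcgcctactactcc
Jun: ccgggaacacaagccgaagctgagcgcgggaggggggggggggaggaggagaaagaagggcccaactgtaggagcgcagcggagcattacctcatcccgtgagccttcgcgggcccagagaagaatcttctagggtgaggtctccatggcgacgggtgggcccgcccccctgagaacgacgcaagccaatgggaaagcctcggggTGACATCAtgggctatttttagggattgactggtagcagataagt
Dusp1: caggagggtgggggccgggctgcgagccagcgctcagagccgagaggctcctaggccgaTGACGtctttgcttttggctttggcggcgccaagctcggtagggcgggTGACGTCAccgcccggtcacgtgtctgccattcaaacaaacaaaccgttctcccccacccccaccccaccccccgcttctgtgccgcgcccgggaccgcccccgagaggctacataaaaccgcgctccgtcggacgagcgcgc
TGACG stood in 5 of the 8 promoters (Atf3, Fosb, Junb, Fos and Dusp1), and in 17.8% of 32851 mouse promoters of the same length. TGACNTCA, which can overlap it, stood in 2 of the 8 (Jun and Dusp1) and in 7.49% of all. The CArG box, to which serum response factor binds, stood in 1 of the 8 (Zfp36) and in 1.47% of all. GCGNGGGCG, an element read by Egr proteins, stood in 2 of the 8 (Fosb and Zfp36) and in 4.7% of all, while TGANTCA, the element of AP-1, stood in none of the 8 and in 6.75% of all. All motifs were searched on both strands, and a match describes these letters and not a site in use. Sequence more than 250 bases before the start was not searched, nor any of Egr1 and Ier2. A gene counted without a motif can therefore still carry it farther upstream.

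Egr1 encodes a zinc finger factor that responds to growth factors and stress and acts on genes of growth and metabolism. Its log2 signal was 9.55 and 8.10 on the 42Y arrays, against 5.60 and 5.74 on the 42WKK arrays. It was 6.59 and 5.77 in 16Y, 7.11 and 6.82 in 6Y, 6.32 and 6.76 in 6K, and 5.93 and 5.46 in group 1. Both 42Y arrays lay above all 10 other arrays. In order of the mean the groups stood as 42Y (8.83 ± 1.02, SD, n = 2), 6Y (6.96 ± 0.21), 6K (6.54 ± 0.31), 16Y (6.18 ± 0.58), group 1 (5.70 ± 0.34) and 42WKK (5.67 ± 0.10). Below 42Y, the lower array of 6Y (6.82) lay just above the higher one of 6K (6.76), and the arrays of each further pair of neighbours overlapped. The gap between the 42Y arrays, 1.45, was the widest of any member in any group.

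**Figure D1:**
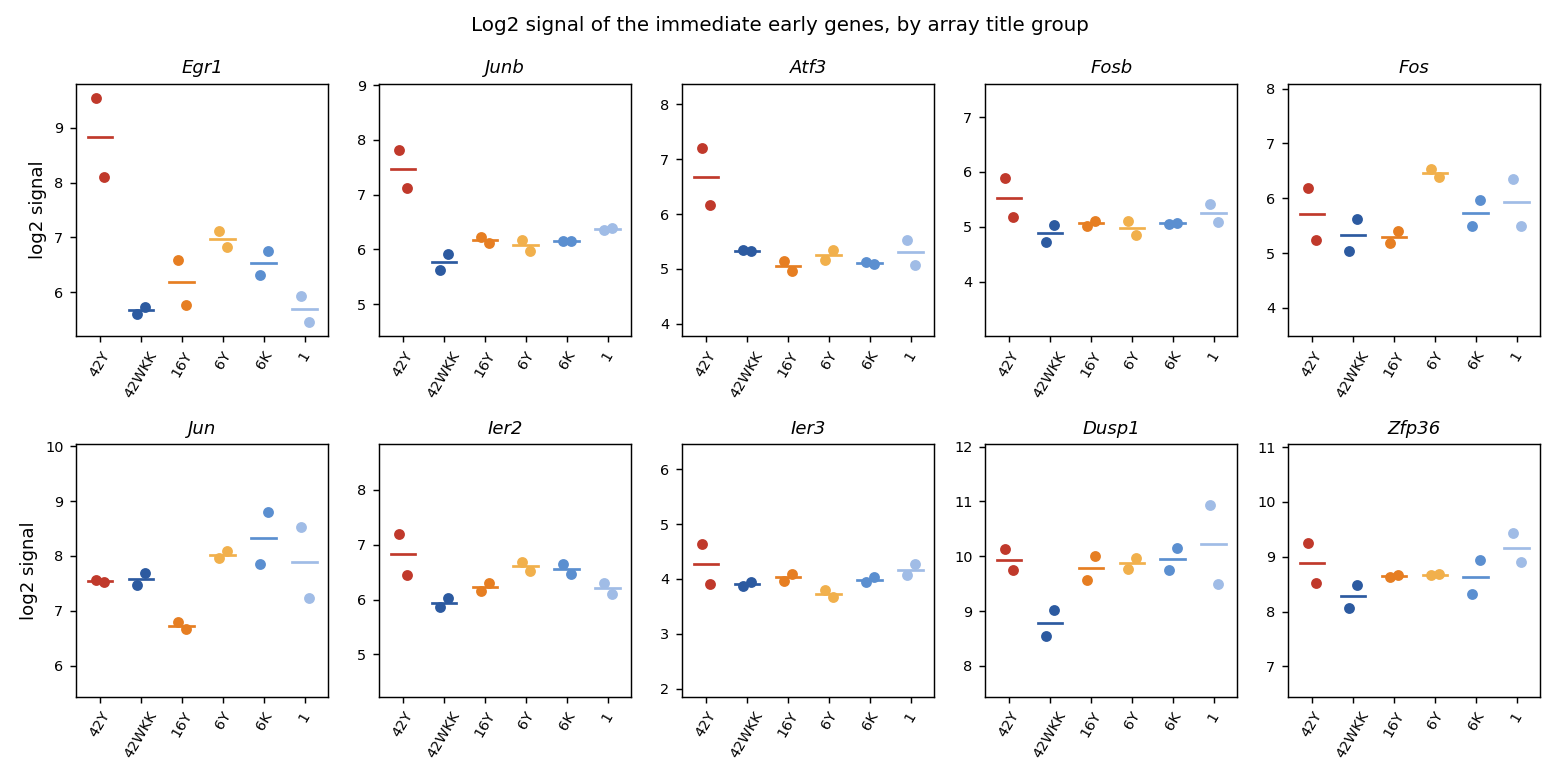
Log2 signal (vertical axis) of each immediate early gene on the 12 arrays, by title group (horizontal axis). Points are arrays, lines are group means of 2 arrays, and all panels span the same number of log2 units. Egr1, Junb and Atf3 lie higher on both 42Y arrays than on every other array, and Jun does not.

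Fos, Fosb, Jun and Junb encode subunits of AP-1, the dimeric factor in which a Fos protein needs a Jun partner to bind DNA. Junb, a subunit that often restrains the activity of Jun, had log2 signals of 7.82 and 7.13 in 42Y, against 5.63 and 5.92 in 42WKK. The other 8 arrays lay between 5.97 and 6.40, so both 42Y arrays were above all others and both 42WKK arrays below all others. Fosb had 5.89 and 5.17 in 42Y, against 4.73 and 5.04 in 42WKK. Array 42Y-1 was the highest of the 12, but 1-3 of group 1 with 5.42 lay above 42Y-2, and the other 9 arrays read 4.73 to 5.11.

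The remaining AP-1 genes did not separate 42Y from 42WKK. Fos, the prototype of the class, had 6.19 and 5.24 in 42Y, against 5.04 and 5.63 in 42WKK, and the groups overlapped. Its highest group was 6Y with 6.54 and 6.39, and its lowest mean was that of 16Y with 5.19 and 5.40. Between them, 6K had 5.50 and 5.97 and group 1 had 6.35 and 5.50. Jun, whose product is the main partner of Fos, had 7.57 and 7.53 in 42Y, against 7.47 and 7.69 in 42WKK. Those 42-week arrays fell within 0.22 of each other while the 2 arrays of group 1 read 8.53 and 7.24 and those of 6K 7.86 and 8.80. Jun was lowest in 16Y, at 6.79 and 6.67, and read 7.96 and 8.09 in 6Y. Every 16Y array was thus below all 10 other arrays for Jun.

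Atf3, a stress-induced factor of the same leucine zipper superfamily, had 7.20 and 6.16 in 42Y, against 5.34 and 5.32 in 42WKK. The remaining 8 arrays read 4.96 to 5.53, and both 42Y arrays lay above every other. In the groups outside 42Y its means were 5.05 to 5.33.

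Ier2, a nuclear protein induced early after growth signals, had 7.20 and 6.45 in 42Y, against 5.86 and 6.02 in 42WKK. The 42Y and 42WKK arrays did not overlap, but 6Y (6.69 and 6.52) and 6K (6.65 and 6.46) reached above the lower 42Y array. Ier3, which modulates survival signalling, had 4.64 and 3.90 in 42Y, against 3.88 and 3.95 in 42WKK. All its signals were below the median of the clusters of the same array, so its differences are small ones at the low end of the range. Array 42Y-1 was the highest of the 12 for both genes.

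Dusp1 encodes a phosphatase that switches off MAP kinases, and Zfp36 encodes tristetraprolin, which directs the decay of short-lived messenger RNAs. Dusp1 had 10.13 and 9.75 in 42Y, against 8.55 and 9.02 in 42WKK. The other groups had 9.50 to 10.93, so that 42WKK was low and 42Y lay among the rest. Zfp36 had 9.25 and 8.53 in 42Y, against 8.07 and 8.49 in 42WKK. Its highest array was 1-3 of group 1 with 9.43, and that same array read 10.93 for Dusp1, the highest of the 12.

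Between 42Y and 42WKK, 9 of the 10 genes had a positive difference, and the median was 0.77 on the log2 scale against 0.016 over all clusters. These values stem from the contrast that picked the list and carry no test. The differences were 3.16 for Egr1 (standard error 0.45), 1.70 for Junb (0.21), 1.35 for Atf3 (0.29), 1.15 for Dusp1 (0.41) and 0.89 for Ier2 (0.22). Those of Fosb (0.65, standard error 0.23), Zfp36 (0.62, 0.30), Fos (0.38, 0.37) and Ier3 (0.35, 0.21) were smaller, and that of Jun was -0.03 (0.40). Both 42Y arrays lay above both 42WKK arrays for 7 genes (Egr1, Fosb, Junb, Atf3, Ier2, Dusp1 and Zfp36) and below for 0, against 25.1% and 22.7% of all clusters. Both lay above all 10 other arrays for 3 genes (Egr1, Junb and Atf3), against 3.09% of all clusters. The median rested in part on 1 array, being 0.401 without 42Y-1 and 1.133 without 42Y-2.

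The other comparisons with a 42-week group share the same 42Y or 42WKK arrays and are set beside it. For 42Y against 16Y the difference was positive for all 10 genes, with a median of 0.532 (-0.025 over all clusters), and the median was 0.166 without 42Y-1 and 0.872 without 42Y-2. For 42Y against group 1 it was positive for 6 genes with a median of 0.189 (-0.037), led by Egr1 (3.13), Atf3 (1.37), Junb (1.09) and Ier2 (0.62). That median was 0.554 without 42Y-2 and turned to -0.177 without 42Y-1, and it was 0.442 without 1-3. For 42WKK against group 1 it was negative for 9 genes with a median of -0.336 (-0.068), with the lowest values for Dusp1 (-1.43), Zfp36 (-0.89) and Junb (-0.61). Without 1-3 that last median was -0.185, and without 1-5 it was -0.56, while leaving out 42WKKA gave -0.221. Dusp1 thus stood apart from Egr1 and Atf3, since its 42WKK arrays were below all 10 other arrays while its 42Y arrays lay among the rest.

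The comparisons without a 42-week group were tested with limma on the log2 signals, and p was adjusted over the 35556 clusters (Benjamini-Hochberg). They address whether these genes differ between groups that the design text counts as of different status or of the same status. These means did not enter the rise of Egr1 that picked the list, although the list was chosen with earlier results of these data known. In 16Y against group 1 the numbers in the titles differ along with the status. Status and what these numbers stand for cannot be told apart there. The 42-week arrays did enter the shared estimate of the spread, and so the standard errors. For 16Y against 6Y, the standard error of Fos was 0.372 with these arrays and 0.289 without them. That of Jun was 0.401 with them and 0.454 without them. At an adjusted p under 0.05, 0 of the 10 members passed in each of the 4 comparisons. The share of all clusters that passed was 0.00281% for 6Y against 6K, 0.0112% for 16Y against group 1, 1.78% for 16Y against 6Y and 0.405% for 6K against group 1. At an unadjusted p under 0.05 there were 0, 1, 2 and 0 members in the same order, while the shares of all clusters were 5.28%, 12.6%, 18.1% and 17.0%. A gene that misses the threshold with 2 arrays a group is not shown to be alike in both.

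The differences nearest to the threshold were those of 16Y against 6Y. Jun had 6.79 and 6.67 in 16Y, against 7.96 and 8.09 in 6Y, which gave -1.30 on the log2 scale (standard error 0.40, adjusted p = 0.141, limma). Fos had 5.19 and 5.40 in 16Y, against 6.54 and 6.39 in 6Y, with -1.18 (standard error 0.37, adjusted p = 0.148). Neither gene's arrays overlapped between the 2 groups. Egr1 had a difference of -0.78 (standard error 0.45, adjusted p = 0.401). Over the 10 genes the median was -0.143 against 0.038 for all clusters, and 16Y lay below 6Y without overlap for 6 genes (Egr1, Fos, Jun, Atf3, Ier2 and Zfp36) and above for 1 (Ier3), where 21.6% and 27.8% of all clusters did.

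Markers of other liver cells moved in the same comparison. All 4 endothelial markers (Pecam1, Cdh5, Stab2 and Lyve1) were lower in 16Y than in 6Y without overlap, where 21.6% of all clusters were. Their summed log2 signals were 8.94 and 9.03 in 16Y, against 9.53 and 9.90 in 6Y. All 4 stellate cell markers were lower as well, with sums of 8.46 and 8.20 in 16Y, against 8.73 and 9.0 in 6Y. Of the 6 Kupffer cell markers 3 were lower, with sums of 9.41 and 9.62 in 16Y, against 9.37 and 10.06 in 6Y, and of the 7 hepatocyte markers 3 were lower and none higher. The part of these in the differences of Jun and Fos was not tested.

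For 16Y against group 1, Jun again had the difference with the smallest p. It had 6.79 and 6.67 in 16Y, against 8.53 and 7.24 in group 1 (-1.16, standard error 0.40, adjusted p = 0.283, limma). The size of that difference rested on 1-3, for it was -0.51 without this array and -1.80 without 1-5. No member was higher in 16Y without overlap and 4 were lower (Fos, Jun, Junb and Zfp36), against 21.7% and 22.4% of all clusters, and the median was -0.234 (-0.011 over all clusters). Egr1 went the other way, with 0.49 (standard error 0.45, adjusted p = 0.712). In this comparison 5 of the 6 Kupffer cell markers were higher without overlap and 1 lower, with sums of 9.41 and 9.62 in 16Y, against 8.56 and 8.96 in group 1, and all 4 acute phase genes were higher. Their part in the differences of the members was not tested.

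For 6Y against 6K the median of the members was -0.016, where that of all clusters was 0.000. Fos had 6.54 and 6.39 in 6Y, against 5.50 and 5.97 in 6K, the largest difference of the 10 at 0.73 (standard error 0.37, adjusted p = 0.921, limma). Egr1, Fos and Atf3 were higher in 6Y without overlap and Ier3 lower, that is 3 and 1 genes, against 17.6% and 17.8% of all clusters. For 6K against group 1, Egr1 had 6.32 and 6.76 in 6K, against 5.93 and 5.46 in group 1, with a difference of 0.85 (standard error 0.45, adjusted p = 0.372). There 2 members were higher without overlap (Egr1 and Ier2) and 3 lower (Fosb, Junb and Ier3), against 22.4% and 27.9% of all clusters, and the median was -0.190 (-0.043). In 6K against group 1 all 4 endothelial markers were higher without overlap, with sums of 9.38 and 9.60 in 6K, against 8.89 and 8.65 in group 1, as were 5 of 6 Kupffer cell and 3 of 4 stellate cell markers, and their part was not tested. Both comparisons rest on 6K, whose records conflict, and the 2 comparisons of 16Y, fitted without the 6K arrays, again passed 0 members.

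**Figure D2:**
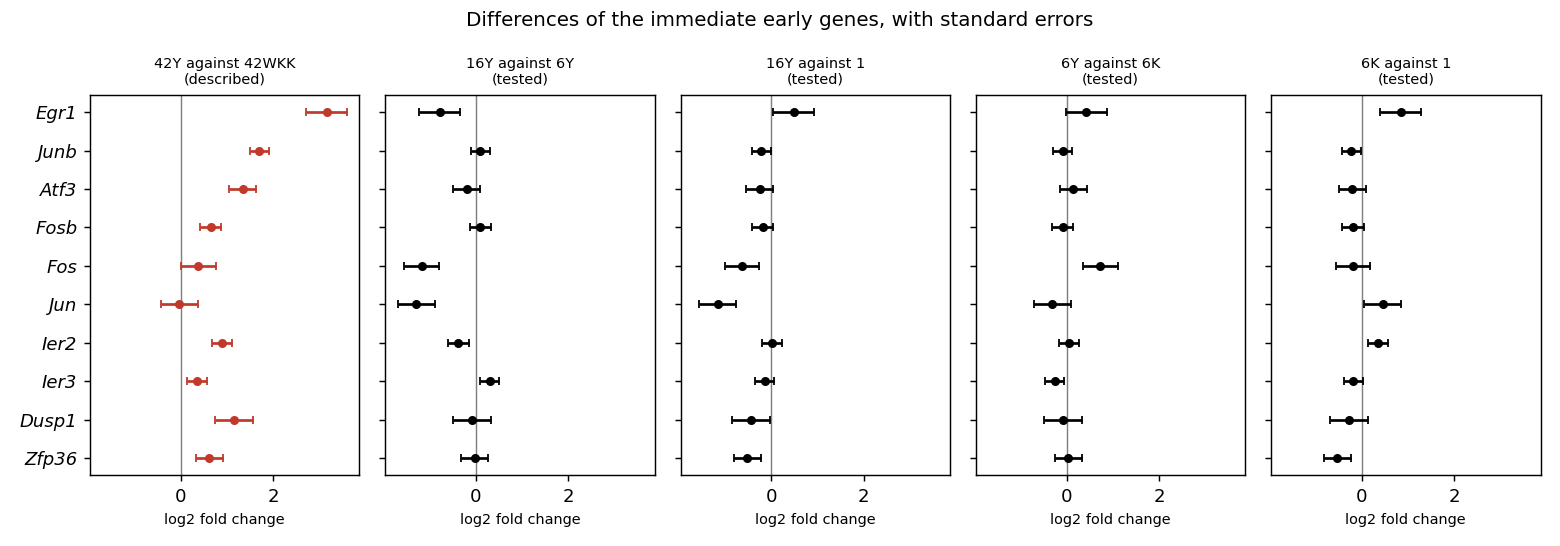
Log2 fold change (horizontal axis) of each immediate early gene (rows) in 42Y against 42WKK, which picked the list and is described only, and in the 4 tested comparisons. Points are estimates and bars are standard errors from the limma fit over 12 arrays. The red points of 42Y against 42WKK reach 3.16 for Egr1, and no gene passed an adjusted p under 0.05 in the black panels.

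The immediate early genes also differed between the 2 arrays of a group. In 42Y the median size of the gap over the 10 genes was 0.733, against 0.198 over all clusters. Array 42Y-1 was above 42Y-2 for all 10 genes, where 50.6% of all clusters were higher on it. Array 42Y-1 was the highest of all 12 arrays for 6 genes (Egr1, Fosb, Junb, Atf3, Ier2 and Ier3), against 8.93% of all clusters. Jun had the smallest gap there, 0.04.

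Gaps were wide in 2 groups outside 42 weeks as well. In group 1 the median gap was 0.461, against 0.164 over all clusters, with 1.43 for Dusp1 and 1.30 for Jun. Array 1-3 was above 1-5 for 8 of the 10 genes, all but Junb and Ier3, where 48.7% of all clusters were. In 6K the median gap was 0.304, against 0.149, with 0.94 for Jun, and 6K-2 was above 6K-1 for 8 genes, all but Atf3 and Ier2 (49.7% of all clusters). The medians were 0.252 in 42WKK, against 0.134 over all clusters, 0.134 in 16Y, against 0.156, and 0.172 in 6Y, against 0.168. In 16Y and 6Y the median gap of the members was thus close to that of all clusters, and the widest gaps there were those of Egr1 (0.82) and Dusp1 (0.45) in 16Y.

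**Figure D3:**
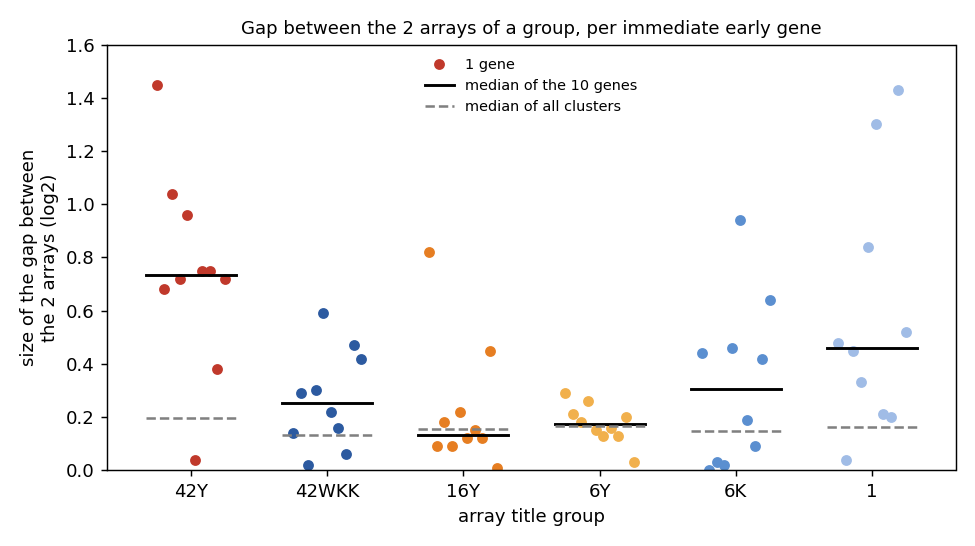
Size of the log2 gap between the 2 arrays of each group (vertical axis), by title group (horizontal axis). Each point is 1 immediate early gene, the black line is the median of the 10 genes and the dashed line the median of all clusters. The median of the members is 0.733 in 42Y and 0.461 in group 1, and 0.134 in 16Y.

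Over the 12 arrays the signals of Egr1, Junb and Atf3 correlated, with Pearson coefficients of 0.858 for Egr1 and Junb, 0.856 for Egr1 and Atf3 and 0.886 for Junb and Atf3. Over the 10 arrays outside 42Y the same coefficients were 0.114, -0.101 and -0.237. These arrays share their groups, so the coefficients describe them and no p is given. Other pairs were alike with and without 42Y, namely Egr1 and Ier2 (0.834 and 0.759), Dusp1 and Zfp36 (0.825 and 0.850), Fosb and Junb (0.869 and 0.803) and Fos and Jun (0.647 and 0.698). Egr1 had coefficients of 0.098 with Jun and 0.320 with Fos over the 12 arrays, and of 0.403 and 0.591 without 42Y, where it was thus closer to Jun and Fos than to Junb and Atf3. The likeness of other genes to Egr1 includes the 42Y values that selected the list and is a description. Among 7667 genes with a mean log2 signal of at least 6 over all arrays, the genes most like Egr1 over the 12 arrays were Plscr1 (0.958), Cemip2 (0.926), Gm527 (0.910), B4galt1 (0.905) and Xk (0.903). Gm527 had 7.41 and 7.45 in 42Y, and passed the filter through them, since it lay at 5.51 to 6.19 on the other 10 arrays. Without the 42Y arrays their coefficients with Egr1 were 0.627 (B4galt1) to 0.769 (Plscr1).

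The members belong to a larger early response, and 3 further lists gave its other factors, its feedback genes and its upstream kinases. These lists were drawn from general knowledge, but with earlier results of these data known. Their differences between 42Y and 42WKK stem from the contrast that picked the members and carry no test. Of 21 other early transcription factors, 12 had both 42Y arrays above both 42WKK arrays and 0 below (25.1% and 22.7% of all clusters), with a median difference of 0.581. The 4 largest were Myc (1.66), Klf6 (1.63), Maff (1.55) and Fosl2 (1.24). Klf6, a zinc finger factor of the Krüppel family, had 8.13 and 7.19 in 42Y, against 5.90 and 6.17 in 42WKK. Maff, a small Maf protein, had 6.55 and 6.54 in 42Y, against 4.77 and 5.22 in 42WKK. Like Jun, it thus lacked the gap between the 42Y arrays that most members had. Myc, which drives growth, had 9.21 and 6.10 in 42Y, against 5.81 and 6.17 in 42WKK, so that its difference came from 42Y-1 and the groups overlapped (standard error 1.05). Fosl2, a Fos-related AP-1 subunit, had 7.69 and 6.93 in 42Y, against 5.89 and 6.25 in 42WKK.

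Of 32 early feedback and growth arrest genes, 22 lay higher in 42Y than in 42WKK without overlap and 5 lower (25.1% and 22.7% of all clusters), with a median difference of 0.937. Btg2, which slows cell division, had 9.19 and 7.88 in 42Y, against 5.77 and 6.20 in 42WKK. Socs3, which restrains cytokine signalling, had 8.42 and 7.14 in 42Y, against 5.02 and 5.61 in 42WKK. In Gadd45a, a DNA damage response gene, the values were 8.75 and 7.13 in 42Y, against 5.45 and 5.79 in 42WKK. In Trib1, a pseudokinase gene, they were 9.60 and 8.40 in 42Y, against 6.76 and 7.09 in 42WKK. All 4, the largest differences of the list, were higher on 42Y-1 than on 42Y-2, as the members and 50.6% of all clusters were. Other genes of the list had the opposite order, for example Gadd45g (8.98 on 42Y-1 and 9.19 on 42Y-2) and Sik1 (7.85 and 8.19).

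Of 16 measured upstream genes, 8 were higher in 42Y than in 42WKK without overlap and 5 lower (25.1% and 22.7% of all clusters), with a median of 0.103. The receptor gene Egfr had 12.21 and 11.80 in 42Y, against 11.12 and 11.31 in 42WKK, a difference of 0.79, and the transcription factor gene Elk1 differed by 0.56. Crtc2, a coactivator of the cyclic AMP response, differed by 0.50, and the kinase gene Mapk9 by -0.38.

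In the 4 tested comparisons these 3 lists gave 1 call in all. None of the 21 other early factors and none of the 16 upstream genes passed in any of them (limma, adjusted p under 0.05), where 1.78% of all clusters passed in 16Y against 6Y. At an unadjusted p under 0.05 at most 2 of the 21 and 7 of the 16, both in 6K against group 1, did, where 17.0% of all clusters did. Of the 32 feedback genes, 2 did in 6Y against 6K, 6 in 16Y against group 1, 5 in 16Y against 6Y and 3 in 6K against group 1, where 5.28%, 12.6%, 18.1% and 17.0% of all clusters did. After adjustment 1 of them passed. Nfkbiz, a nuclear regulator of NF-κB targets, rose in 16Y against 6Y, with 6.46 and 6.32 in 16Y, against 5.51 and 5.78 in 6Y (0.75, standard error 0.13, adjusted p = 0.0376, limma). The call was lost when any 1 of these 4 arrays was left out and in 8 of 13 alternatives in all, over which the adjusted p ranged from 0.00616 to 0.186.

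**Figure D4:**
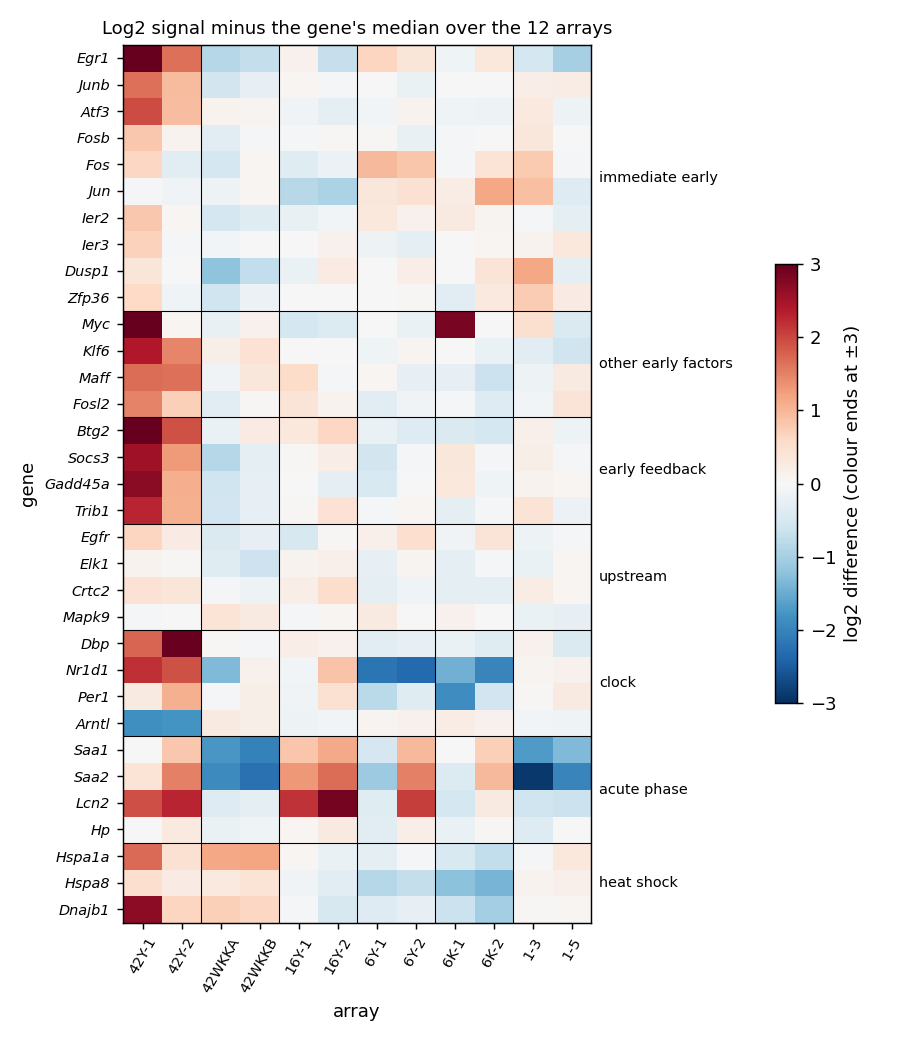
Log2 signal of each gene (rows) on each of the 12 arrays (columns) minus the gene's median over the arrays, with colours ending at ±3. The 10 immediate early genes stand above up to 4 genes of each further list, those with the largest difference between 42Y and 42WKK in the first 3 lists. The first column, array 42Y-1, is above its neighbour 42Y-2 in all 10 immediate early genes, and the clock gene Dbp has the opposite order.

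Other genes also differed between 42Y and 42WKK. Of the clock genes, Nr1d1 had 10.47 and 10.21 in 42Y, against 6.96 and 8.41 in 42WKK, and Arntl had 5.62 and 5.67 in 42Y, against 7.74 and 7.64 in 42WKK. Dbp had 7.81 and 9.01 in 42Y, against 6.10 and 6.01 in 42WKK, so its higher 42Y array was 42Y-2, the lower one for all 10 members. The hour at which tissue was taken was not stated in the sources used here. All 4 acute phase genes were higher in 42Y without overlap, where 25.1% of all clusters were. Saa1 had 10.31 and 11.11 in 42Y, against 8.55 and 8.28 in 42WKK, and here too 42Y-2 was above 42Y-1. These 4 genes were not higher in 42Y than in 16Y, with 0 positive differences and a median of -0.471. In 16Y, Saa1 read 11.14 and 11.45. All 10 members had a positive difference in 42Y against 16Y.

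The 5 neutrophil markers summed to 7.04 and 7.55 in 42Y, against 6.47 and 6.59 in 42WKK, with 4 of the 5 higher without overlap and 1 lower. The heat shock gene Dnajb1 had 9.82 and 7.78 in 42Y, against 7.84 and 7.75 in 42WKK, and was thus high on 42Y-1 alone. Hspa8 differed by 0.04 and Hspa1a by -0.09 between 42Y and 42WKK, and none of the 3 measured heat shock genes separated the groups. On 42Y-1 and 42Y-2, Hspa1a read 7.48 and 6.24, and Hspa8 read 12.59 and 12.33. All 3 heat shock genes were thus higher on 42Y-1 than on 42Y-2, as the members were. Of the 7 hepatocyte markers, 6 were lower in 42Y without overlap (22.7% of all clusters). Their sums were 15.85 and 15.82 in 42Y, against 16.03 and 16.03 in 42WKK. Of the 4 stellate cell markers 2 were lower and 0 higher (22.7% and 25.1% of all clusters). Their sums were 8.46 and 8.11 in 42Y, against 9.10 and 8.73 in 42WKK. The part of clock, acute phase, heat shock and cell type genes in the differences of the members was not tested.

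Some of these genes also differed in the tested comparisons. Nr1d1 was higher in 16Y than in 6Y, with 8.20 and 9.15 in 16Y, against 6.09 and 5.95 in 6Y (2.66, standard error 0.45, adjusted p = 0.0349, limma), a call lost when any 1 of these 4 arrays was left out (adjusted p of 0.00591 to 0.149 over all alternatives). Hspa8 was lower in 6K than in group 1, with 10.85 and 10.67 in 6K, against 12.18 and 12.22 in group 1 (-1.44, standard error 0.13, adjusted p = 0.0112, limma), and this call too was lost when any 1 of the 4 arrays was left out (adjusted p of 0.000909 to 0.246 over all alternatives). The members passed in neither comparison.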

How the data were processed

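The methods state that liver RNA was hybridised to a mouse exon array, although the cluster identifiers belong to the mouse gene array. The authors deposited log2 signals, 1 per transcript cluster and array, computed by robust multichip analysis in Affymetrix Expression Console, as the submitters' processing notes name it. The genome build of the files was not given in these sources. From these values, 6 group means over 12 arrays were estimated using limma 3.58.1 under R 4.3.3 (lmFit, contrasts.fit, eBayes without trend), with Benjamini-Hochberg adjustment over 35556 clusters and a threshold of 0.05. Of these clusters, 21789 carried 1 symbol, 1621 several and 12146 none, and 21698 were matched to GRCm38.p6 by gene identifier. Simulated data with known changes were used to test the fit. Precision is limited by the number of arrays, for which no read depth exists.

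The members and the wider lists were chosen with earlier results of these data known. Named genes were all members, called list genes (up to 4 per list and comparison), the 4 of each wider list with the largest difference between 42Y and 42WKK, the 5 genes most like Egr1, and fixed clock, acute phase, heat shock and cell type genes. Summed log2 signals are log2 of the sum of linear signals.

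Alternatives were quantile normalization, a mean log2 signal of at least 6, clusters with 1 symbol, a variance trend, the 4 arrays compared alone, no 6K arrays, each array left out, the replicate number in the titles (the 1 or 2 after the hyphen) as a block and the mean of a gene's clusters. A fit without the 42-week arrays was chosen after seeing the data.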

Additional observations from a re-analysis of the deposited data

Results flagged for a closer look

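Fos differed in direction, without overlap of arrays in either, between 16Y against group 1 and 6Y against 6K. Its log2 signals were 5.19 and 5.40 in 16Y, against 6.35 and 5.50 in group 1, so that every 16Y array was lower. They were 6.54 and 6.39 in 6Y, against 5.50 and 5.97 in 6K, so that every 6Y array was higher. The difference between the 2 contrasts, 16Y minus group 1 less 6Y minus 6K, was -1.365 on the log2 scale (standard error 0.53), and its test did not pass (limma, adjusted p = 0.736 over all clusters). At an unadjusted p it was 0.03 for Fos, and 0 clusters of the array passed this test after adjustment. The contrast of 6Y with 6K rests on arrays whose records conflict. In the contrast of 16Y with group 1, status cannot be told apart from what the differing title numbers stand for.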

How the results depend on the processing

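The count of members that passed stayed 0 in every tested comparison under every alternative, except that 1 of 6 members tested, Jun in 16Y against 6Y (-1.30, adjusted p = 0.045, limma, and 0.045 to 0.355 over all alternatives), passed among clusters with a mean log2 signal of at least 6. Fewer clusters enter the adjustment there. With each array left out in turn, the members' median ranged over 0.401 to 1.133 in 42Y against 42WKK, 0.166 to 0.872 in 42Y against 16Y, -0.177 to 0.554 in 42Y against group 1 and -0.56 to -0.185 in 42WKK against group 1. In those fits the lone array of a group borrows the spread of the remaining groups, which is an assumption. Over all alternatives the clusters that passed numbered 0 to 2 in 6Y against 6K (1 as reported), 0 to 690 in 16Y against group 1 (4), 0 to 2011 in 16Y against 6Y (634) and 0 to 1752 in 6K against group 1 (144). The fit without the 42-week arrays, chosen after seeing the data, passed 0, 1, 74 and 16 clusters in the same order. Hspa8 in 6K against group 1 was also lost with the 4 arrays alone (adjusted p = 0.246).

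Same-numbered arrays of different groups did not deviate together over all clusters, with correlations of their differences between -0.036 and 0.055. No link beyond the shared number was thus seen, although a link that acts on few genes would not show in this check. With that number as a replicate block, 0 members passed in each comparison, and the clusters that passed were 0, 4, 398 and 44. The block is balanced within each group, so it cannot move a difference and changes only the standard errors. The members' medians at 42 weeks (0.767, 0.532 and 0.189) were therefore the same by design. In that fit Nfkbiz had an adjusted p of 0.0557 and Nr1d1 of 0.0526. The signals of Ier3 were below the array medians, which limits the precision of its differences. Outside 42Y, Fosb (4.73 to 5.42) and Atf3 (4.96 to 5.53) also lay near these medians (4.74 to 4.88), so their differences there carry a like limit.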

Other observations

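Some early response genes outside the 10 members stood out on few arrays, and they were chosen after their values were seen. Myc read 9.21 on 42Y-1 and 8.88 on 6K-1, and 5.51 to 6.53 on the other 10 arrays. Phlda1, a gene induced by growth signals, read 9.25 on 42Y-1 and 9.33 on 6K-1, and 6.80 to 7.56 on the others. Egr1 read 9.55 on 42Y-1 and 6.32 on 6K-1, so that array 6K-1 was high in Myc and Phlda1 but not in Egr1. Tnfaip3, which ends NF-κB signalling, read 8.13 on 42Y-1, 6.18 on 42Y-2 and 5.14 to 5.73 on the other 10 arrays. The phosphatase gene Dusp5 read 7.35 on 42Y-1, 5.71 on 42Y-2 and 5.51 to 5.83 on the other 10 arrays. Dusp6, of the same family, read 9.93 on 42Y-1, 7.89 on 42Y-2 and 6.19 to 7.58 on the other 10. Both 42Y arrays thus lay above all others for Tnfaip3 and Dusp6, but not for Dusp5.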
